A study of Mus musculus with 4 samples.

Results

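The contractile apparatus of smooth muscle was followed in airway smooth muscle RNA through 39 genes chosen by name: actins, tropomyosins and their binding proteins, smooth muscle myosin and the enzymes that regulate it, dense body and attachment proteins, and small heat shock proteins. Of these, 38 had a named probe set among 23185 named genes on the array, all with 1 probe set each, and all 38 passed a filter that kept genes whose highest value reached the median of all named values, 6.05 on the log2 scale. The filter left 12395 genes in all. Myl6, the essential light chain of smooth muscle myosin, was not analysed here. The members with a value comprised 14 thin filament genes, 12 dense body and attachment genes and 4 small heat shock genes. The other 8, called thick filament genes below, are the myosin genes Myh11, Myh10 and Myl9 together with regulatory genes.

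RNA came from lung cells of adult mice that carry Acta2-hrGFP, a green reporter driven by the smooth muscle actin promoter, and Cspg4-DsRED, a red reporter driven by the promoter of a pericyte proteoglycan gene. Green cells without red were sorted, so all 4 groups share this genotype and gate, and RNA of 3 mice was pooled on 1 array per group. VAD mice ate a vitamin A-deficient diet (below 0.1 IU per gram) for 3 days by one label and 5 days by another, and VAS mice ate a routine sufficient diet (15 IU per gram). BMS mice ate a powdered, sufficient diet mixed for 3 days with BMS, a pan-retinoic acid receptor antagonist (5 mcg per gram), and CTR mice the same powder with corn oil vehicle for 3 days. The design addresses how airway muscle depends on retinoic acid, which cells make from vitamin A. With 1 array per group there is no spread within a group, so "higher" and "lower" below describe arrays of single pools and carry no test unless a fit is named. In bulk RNA, fewer muscle cells and less contractile RNA per cell cannot be told apart.

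Smooth muscle shortens when calcium-bound calmodulin activates myosin light chain kinase, the phosphorylated regulatory light chain lets myosin heads pull on actin, and myosin phosphatase ends the contraction. Thin filaments carry tropomyosin, caldesmon, calponin and transgelin, and are anchored at dense bodies, the smooth muscle counterpart of Z-discs, which link to desmin filaments and to the membrane. Many of the genes are targets of serum response factor, which binds the CArG box. In airways this apparatus sets bronchial tone.

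For the labelled cell type, 9 airway smooth muscle markers were read, of which 8 passed the filter. Chrm3, a muscarinic receptor gene, did not, and 5 of the 9 are also members (Acta2, Actg2, Myh11, Cnn1 and Des). Of the others, Hhip, a hedgehog-binding protein gene, was at 12.35 in VAD, 12.39 in VAS, 12.54 in BMS and 12.62 in CTR. Lgr6, a receptor gene, was at 8.43 in VAD, 8.42 in VAS, 8.41 in BMS and 8.72 in CTR. Chrm2, another muscarinic receptor gene, was at 9.37 in VAD, 10.62 in VAS, 9.54 in BMS and 10.32 in CTR, lower on the treated array of both experiments. All 13 fibroblast, all 10 pericyte and vascular smooth muscle and 9 of 10 endothelial markers also passed the filter on the array. So did 5 of 9 leukocyte, 5 of 10 alveolar epithelial and 3 of 6 airway epithelial markers. Passing the filter therefore does not identify the cells. On the log2 scale, the summed unlogged level of the fibroblast markers was 14.53 in VAD, 14.61 in VAS, 14.82 in BMS and 14.40 in CTR. That of the 9 airway smooth muscle markers was 14.62 in VAD, 14.49 in VAS, 14.36 in BMS and 14.52 in CTR. Fibroblast markers thus had the higher sum in VAS and BMS, though the lists differ in length. Among 12 cardiac myocyte markers, Tnnt2, Tnni3 and Actc1 passed, and the other 9, including Myh6, Myl7, Actn2 and Ttn, were below the filter on every array. The medians of the named genes ran from 6.03 to 6.08 on the 4 arrays. Among arrays that RMA normalized together, a change common to most genes may not show in the values, and which arrays those were is unknown here.

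Promoters are shown for the members whose window holds a CArG box. RefSeq promoters of GRCm38.p6 (250 bases before and 50 after a start) were matched for 34 of the 38 members with a value, as 41 windows. Actg2, Myh11, Nexn and Tagln had no window and were not searched. The CArG box was searched on both strands with no mismatch allowed. It was found in 5 of these windows (12.2%) and in 535 of all 32851 windows (1.63%). It lies before Ldb3, Myl9, Cnn2 and Fhl1, the 2 Ldb3 windows sharing 1 box at 35 and 109 bases before their starts. The motif AGGTCA, a half-site of nuclear receptors including those of retinoic acid, was in 3 windows of members (7.32%), those of Lpp, Pcp4 and Tpm4, and in 16.3% of all windows, on either strand. A match describes letters in a window and is not a site of binding. Ldb3, Fhl1, Cnn2 and Myl9 differed by 0.66, 0.30, 0.01 and -0.16 in VAD minus VAS. In BMS minus CTR they differed by 0.09, 0.04, -0.09 and -0.01. Whether the box bears on these differences was not tested. The bases before the start are printed for Ldb3 (chr14:34588682-34588931, minus strand) and Myl9 (chr2:156775214-156775463, plus strand), the member with the largest VAD difference and one of the few below 0. The 30 bases around the box are printed for Cnn2 (chr10:79988534-79988563, plus strand) and Fhl1 (chrX:56779571-56779600, plus strand). Capitals mark the CArG box.
Ldb3: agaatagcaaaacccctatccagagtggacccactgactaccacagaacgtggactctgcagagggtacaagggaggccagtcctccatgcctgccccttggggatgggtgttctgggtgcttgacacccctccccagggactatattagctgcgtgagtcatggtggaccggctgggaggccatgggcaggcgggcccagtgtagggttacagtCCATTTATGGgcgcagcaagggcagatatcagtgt
Myl9: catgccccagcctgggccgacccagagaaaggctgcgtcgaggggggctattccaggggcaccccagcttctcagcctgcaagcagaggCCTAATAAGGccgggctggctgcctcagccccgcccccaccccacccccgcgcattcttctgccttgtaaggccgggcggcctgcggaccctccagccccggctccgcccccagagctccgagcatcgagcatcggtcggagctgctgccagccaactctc
Cnn2: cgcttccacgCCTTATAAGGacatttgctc
Fhl1: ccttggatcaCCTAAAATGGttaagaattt

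The first comparison asked what the vitamin A-deficient diet did. Contractile apparatus genes stood slightly higher in VAD than in VAS, by a median of 0.13 on the log2 scale, and the widest differences were in dense body and attachment genes. Of the 38 members, 31 were above 0 (51.4% of all genes were), 6 below and Hspb7 had the same value on both arrays. The median of all genes was 0.01. Ldb3 was the 1 member at least 1.5-fold higher (1.45% of all genes were), and none was at least 1.5-fold lower (2.11% of all genes). At a smaller threshold of 0.32 log2 units (0.3219 before rounding), 4 members were higher, Ldb3, Actn1, Des and Synm (8.16% of all genes), and none was lower (8.45%). The differences were therefore small and mostly of one sign, with few past a set size. The summed unlogged level of the 38 members was 16.03 in VAD and 15.88 in VAS on the log2 scale.

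**Figure D1:**
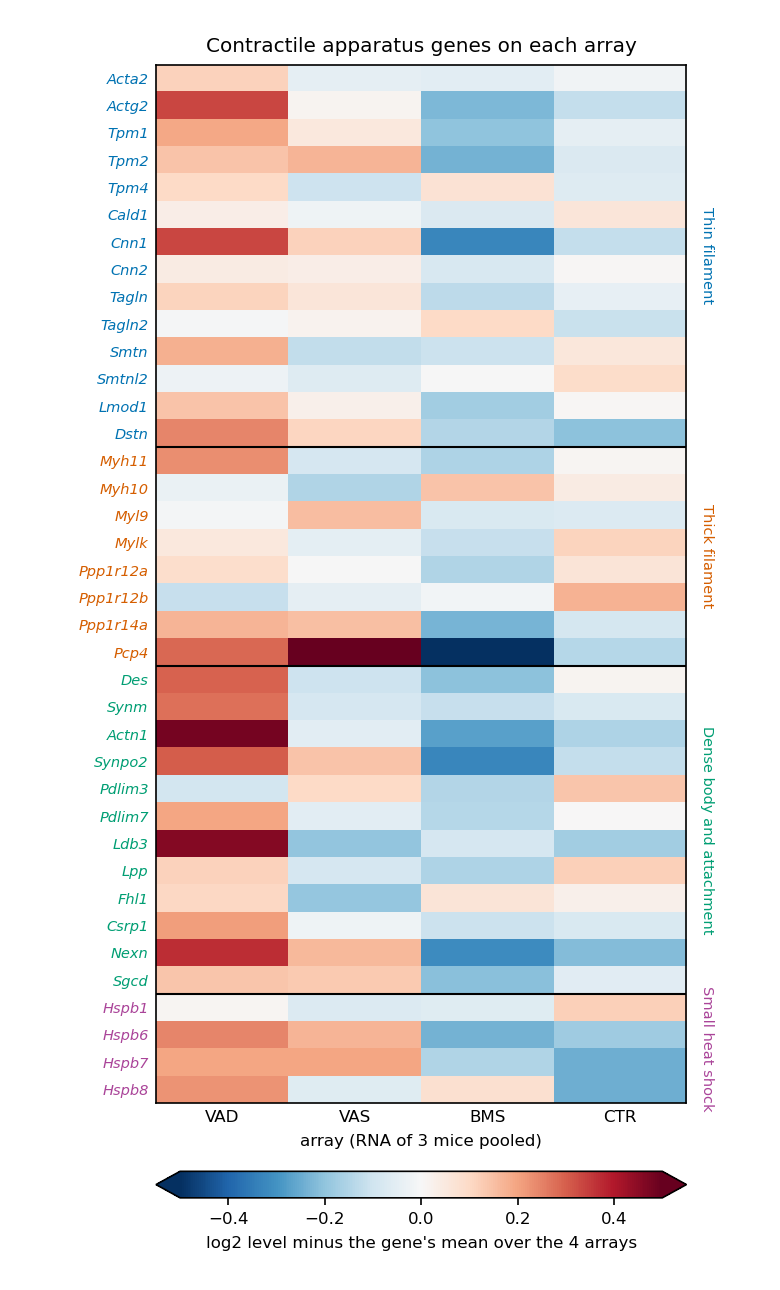
Log2 level of each of 38 contractile apparatus genes on the VAD, VAS, BMS and CTR arrays (columns), minus the gene's own mean over the 4 arrays, with genes grouped by role; colours end at 0.5 log2 units to either side. VAD is the highest array for 25 genes and BMS the lowest for 26.

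Thin filament genes had a median VAD minus VAS difference of 0.13, with 12 of 14 above 0. Acta2 (Entrez gene 11475), smooth muscle alpha actin, was at 12.12 in VAD and 11.96 in VAS, against 11.95 in BMS and 11.98 in CTR. Its promoter drives the sorted reporter, so its level is tied to the gate and is no independent result. Actg2 (Entrez gene 11468), the gamma actin of visceral smooth muscle, was at 12.02 in VAD, 11.70 in VAS, 11.46 in BMS and 11.56 in CTR. Both diet arrays thus stood above both antagonist-experiment arrays for Actg2, which Acta2 did not show. Smooth muscle actin genes are closely related, and whether the probe sets tell them apart was not tested.

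Among the proteins that bind actin, Cnn1, calponin 1, an inhibitor of myosin ATPase on thin filaments, was at 11.85 in VAD, 11.63 in VAS, 11.19 in BMS and 11.40 in CTR. Smtn, smoothelin, a marker of contractile smooth muscle, was at 10.72 in VAD, 10.42 in VAS, 10.44 in BMS and 10.60 in CTR. VAD was the highest array for both genes, but Smtn in CTR lay closer to VAD than VAS did. Tagln, transgelin, an actin-bundling protein, was at 12.28 in VAD, 12.23 in VAS, 12.04 in BMS and 12.13 in CTR. Lmod1, leiomodin 1, which nucleates actin filaments, was at 9.03 in VAD, 8.92 in VAS, 8.72 in BMS and 8.90 in CTR. Dstn, destrin, which severs actin filaments, was at 11.16 in VAD, 11.03 in VAS, 10.77 in BMS and 10.71 in CTR. For Tagln, Lmod1 and Dstn the CTR array stood below both diet arrays, as did BMS.

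The 3 tropomyosin genes, whose products lie along the actin filament, did not share a pattern. Tpm1 was at 10.06 in VAD, 9.92 in VAS, 9.66 in BMS and 9.82 in CTR. Tpm2 was at 9.64 in VAD, 9.67 in VAS, 9.26 in BMS and 9.42 in CTR. Tpm4 was at 7.84 in VAD, 7.63 in VAS, 7.81 in BMS and 7.67 in CTR, higher on the treated array of both experiments. Cald1, caldesmon, which blocks myosin binding to actin, stayed between 11.51 in BMS and 11.64 in CTR. Cnn2, a calponin of non-muscle cells too, differed by 0.01 in VAD minus VAS, and Tagln2, a transgelin of non-muscle cells, by -0.02. Smtnl2, a smoothelin-like gene, differed by 0.04.

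Thick filament genes, counted together with their regulatory genes, had a smaller median in VAD, 0.06, with 5 of 8 above 0. Myh11 (Entrez gene 17880), the smooth muscle myosin heavy chain, was at 11.56 in VAD, 11.25 in VAS, 11.18 in BMS and 11.34 in CTR. VAD was the highest and BMS the lowest array, and CTR minus VAS was 0.09. Myh10, a non-muscle myosin heavy chain, was at 9.32 in VAD, 9.21 in VAS, 9.50 in BMS and 9.40 in CTR. Myl9 (Entrez gene 98932), the regulatory light chain that the kinase phosphorylates, was at 12.10 in VAD, 12.27 in VAS, 12.04 in BMS and 12.05 in CTR. VAS was the highest array for Myl9, and BMS and CTR were nearly equal.

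The enzymes that set light chain phosphorylation differed little with the diet. Mylk, myosin light chain kinase, was at 9.66 in VAD and 9.56 in VAS, and 9.50 in BMS and 9.72 in CTR. Ppp1r12a, the targeting subunit of myosin phosphatase, was at 10.45 in VAD and 10.36 in VAS, and 10.21 in BMS and 10.43 in CTR. Its paralog Ppp1r12b was at 7.91 in VAD and 7.98 in VAS, and 8.01 in BMS and 8.20 in CTR. Ppp1r14a, known as CPI-17, which inhibits that phosphatase when phosphorylated, was at 11.14 in VAD and 11.12 in VAS, and 10.74 in BMS and 10.89 in CTR. Mylk and both targeting subunits were thus lower in BMS than in CTR by 0.19 to 0.22, and Ppp1r14a was lower in both antagonist-experiment arrays.

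Pcp4 (Entrez gene 18546), a small calmodulin-binding protein, had the widest range of all members, at 8.08 in VAD, 8.29 in VAS, 7.15 in BMS and 7.65 in CTR. Both arrays of the antagonist experiment stood below both of the diet experiment, and within each experiment the treated array was the lower one. It was the lowest of the 38 differences in VAD minus VAS (-0.21), in BMS minus CTR (-0.50) and in CTR minus VAS (-0.64).

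Dense body and attachment genes had the largest median of the 4 roles in VAD, 0.24, with 11 of 12 above 0. Ldb3 (Entrez gene 24131), a PDZ and LIM domain protein that binds alpha-actinin, was at 8.10 in VAD, 7.44 in VAS, 7.55 in BMS and 7.46 in CTR. VAD stood apart from the other 3 arrays, and was 1.58-fold above VAS. Actn1 (Entrez gene 109711), the alpha-actinin that crosslinks actin at dense bodies, was at 11.32 in VAD, 10.79 in VAS, 10.57 in BMS and 10.69 in CTR. Des (Entrez gene 13346), desmin, the muscle intermediate filament, was at 11.85 in VAD, 11.45 in VAS, 11.35 in BMS and 11.57 in CTR. Synm, synemin, which joins desmin to the attachment sites, was at 7.50 in VAD, 7.14 in VAS, 7.11 in BMS and 7.15 in CTR. For all 4 genes VAD was the highest array, by at least 0.28 over the next.

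The other attachment genes differed less in VAD minus VAS. Fhl1, a LIM domain protein of muscle, was at 10.04 in VAD, 9.74 in VAS and 9.96 in CTR, and in BMS it was 0.04 above CTR, so VAS was the low array. Pdlim7, a PDZ and LIM domain protein, was 0.25 higher in VAD than in VAS, and Csrp1, a LIM protein bound to actin, 0.23. Nexn, nexilin, an actin-binding protein, was at 10.20 in VAD, 9.99 in VAS, 9.51 in BMS and 9.61 in CTR. Synpo2, synaptopodin 2, another actin-binding protein, was at 9.63 in VAD, 9.47 in VAS, 9.0 in BMS and 9.21 in CTR. Both Nexn and Synpo2 were lower on both antagonist-experiment arrays. Lpp, a LIM protein of focal adhesions, was 0.20 higher in VAD, and Sgcd, delta-sarcoglycan of the membrane complex, 0.01. Pdlim3 was the 1 member of the role below 0, at 10.43 in VAD, 10.62 in VAS, 10.38 in BMS and 10.66 in CTR, and the 1 member of all 38 for which both treated arrays stood below both controls (11.6% of all genes).

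**Figure D2:**
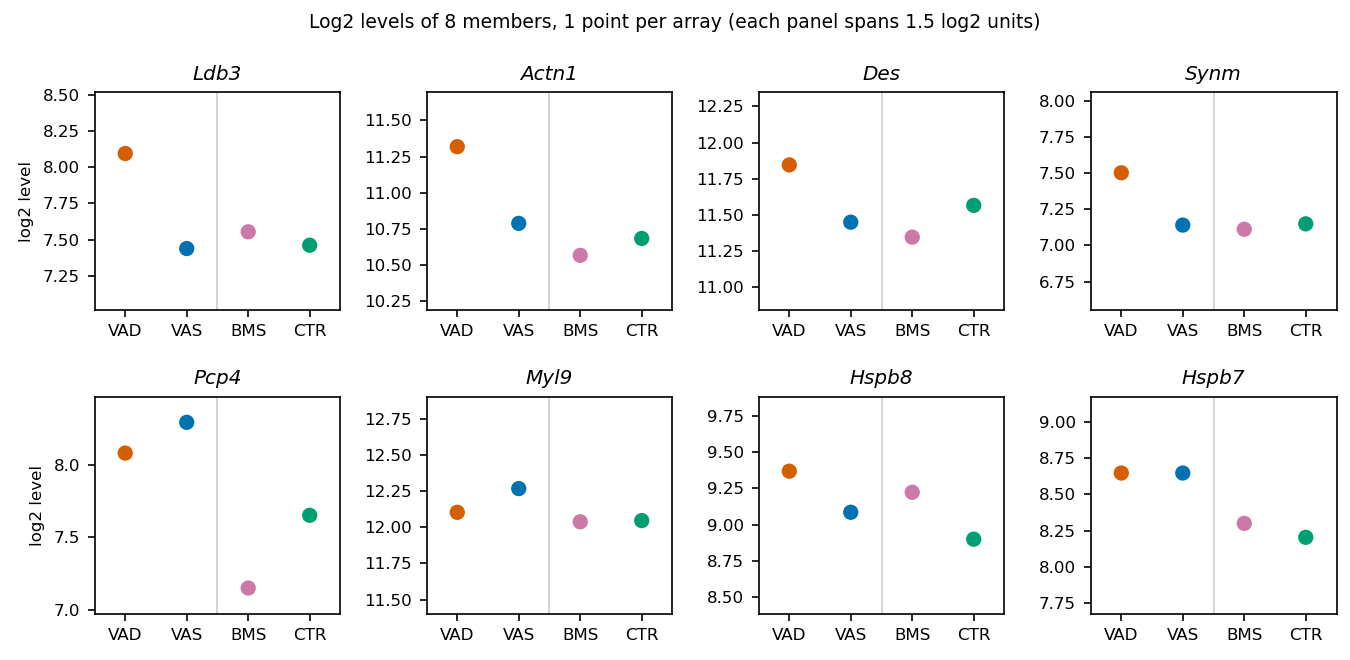
Log2 level of Ldb3, Actn1, Des, Synm, Pcp4, Myl9, Hspb8 and Hspb7 on the VAD, VAS, BMS and CTR arrays, 1 point per array of RNA pooled from 3 mice, with the same height of axis in each panel. VAD stands alone for Ldb3, Actn1 and Synm, while Pcp4 and Hspb7 are lower in both BMS and CTR than in both VAD and VAS.

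Small heat shock proteins, several of which bind actin or protect filaments in muscle, had a VAD median of 0.07. Hspb8 was at 9.37 in VAD, 9.08 in VAS, 9.22 in BMS and 8.90 in CTR, higher on the treated array of both experiments. Hspb6, a target of cyclic nucleotide kinases in smooth muscle relaxation, was at 9.89 in VAD, 9.82 in VAS, 9.41 in BMS and 9.47 in CTR. Hspb7 was at 8.65 in both VAD and VAS, and 8.30 in BMS and 8.20 in CTR. Hspb6 and Hspb7 thus separated the 2 experiments rather than treated from control arrays. Hspb1 ranged from 11.11 to 11.29, with CTR highest.

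Markers of other cells were compared between the same arrays. In VAD minus VAS, 4 of 12 cardiac myocyte markers were above 0 with a median of -0.05, and their summed level was 12.81 in VAD and 12.94 in VAS. The 3 cardiac markers past the filter were lower in VAD than in VAS and lower in BMS than in CTR. Fibroblast markers had 5 of 13 above 0, a median of -0.09 and summed levels of 14.53 in VAD and 14.61 in VAS. Pericyte and vascular smooth muscle markers had 6 of 10 above 0, a median of 0.10 and summed levels of 12.57 in VAD and 12.40 in VAS. Alveolar epithelial markers had 2 of 10 above 0, a median of -0.22 and summed levels of 10.34 in VAD and 11.45 in VAS. The highest of these, Sftpc, was at 9.28 in VAD and 10.86 in VAS. Leukocyte markers had 2 of 9 above 0, a median of -0.04 and summed levels of 10.90 in VAD and 10.69 in VAS. The highest leukocyte marker, Cd3e, was at 9.69 in VAD and 8.99 in VAS, while 7 of the list were below 0. Endothelial markers had 6 of 10 above 0, a median of 0.04 and summed levels of 10.84 in VAD and 10.73 in VAS. Airway epithelial markers had 3 of 6 above 0, a median of 0.04 and summed levels of 8.50 in VAD and 8.40 in VAS. The part of these cells in the contractile differences was not tested.

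The antagonist comparison asked what receptor blockade did. Contractile apparatus genes stood slightly lower in BMS than in CTR, by a median of -0.12 on the log2 scale, the opposite sign to the diet. Of the 38 members 8 were above 0 (51.4% of all genes were), and the median of all genes was 0.01. None was at least 1.5-fold higher (3.11% of all genes were) and none at least 1.5-fold lower (1.89%). At 0.32 log2 units, Hspb8 was the 1 member higher (10.4% of all genes) and Pcp4 the 1 lower (8.47%). The summed level of the members was 15.74 in BMS and 15.83 in CTR.

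By role, the BMS minus CTR medians were -0.10 for the thin filament (3 of 14 above 0) and -0.18 for the thick filament with its regulation (1 of 8). They were -0.13 for dense bodies and attachment (2 of 12) and 0.02 for small heat shock proteins (2 of 4). Among thick filament genes, Myh11 differed by -0.16, Myh10 by 0.10 and Myl9 by -0.01, and the others of that role are regulatory genes. After Pcp4, the lowest differences were those of Pdlim3 with -0.28, Lpp with -0.27, Mylk with -0.22 and Des with -0.22. Cnn1, Synpo2 and Ppp1r12a differed by -0.21 each. These 7 genes lie in 3 roles and were each between 0.82 and 0.87 times their CTR level in BMS. Upward, Hspb8 was 0.32 higher, Tagln2, the transgelin of non-muscle cells, 0.21, Tpm4 0.14, Myh10 0.10 and Hspb7 0.10. Ldb3 was 0.09 higher, Dstn 0.06 and Fhl1 0.04. Acta2 differed by -0.04 and Myl9 by -0.01.

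Markers of other cells were compared in this pair too. All 13 fibroblast markers were above 0 in BMS minus CTR, with a median of 0.48 and summed levels of 14.82 in BMS and 14.40 in CTR. Endothelial markers had 9 of 10 above 0, a median of 0.28 and summed levels of 11.03 in BMS and 10.56 in CTR. Pericyte and vascular smooth muscle markers had 1 of 10 above 0, a median of -0.26 and summed levels of 12.71 in BMS and 12.94 in CTR. Alveolar epithelial markers had 6 of 10 above 0, a median of 0.02 and summed levels of 10.23 in BMS and 9.60 in CTR. Leukocyte markers had 5 of 9 above 0, a median of 0.07 and summed levels of 10.09 in BMS and 10.35 in CTR. Cardiac myocyte markers had 6 of 12 above 0, a median of -0.01 and summed levels of 12.24 in BMS and 12.48 in CTR. Airway epithelial markers had 4 of 6 above 0, a median of 0.03 and summed levels of 8.45 in BMS and 8.37 in CTR. By summed level, fibroblast, endothelial, alveolar and airway epithelial markers were thus higher in BMS. Pericyte and vascular smooth muscle, leukocyte and cardiac markers were lower by that measure. A sum mostly follows the highest genes of its list. Sftpc was at 9.15 in BMS and 7.32 in CTR, Actc1 at 11.97 and 12.19, and Cd3e at 8.93 and 9.35. By count, leukocyte (5 of 9 above 0) and cardiac markers (6 of 12) had no common direction. The part of these cells in the lower contractile median was not tested.

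**Figure D3:**
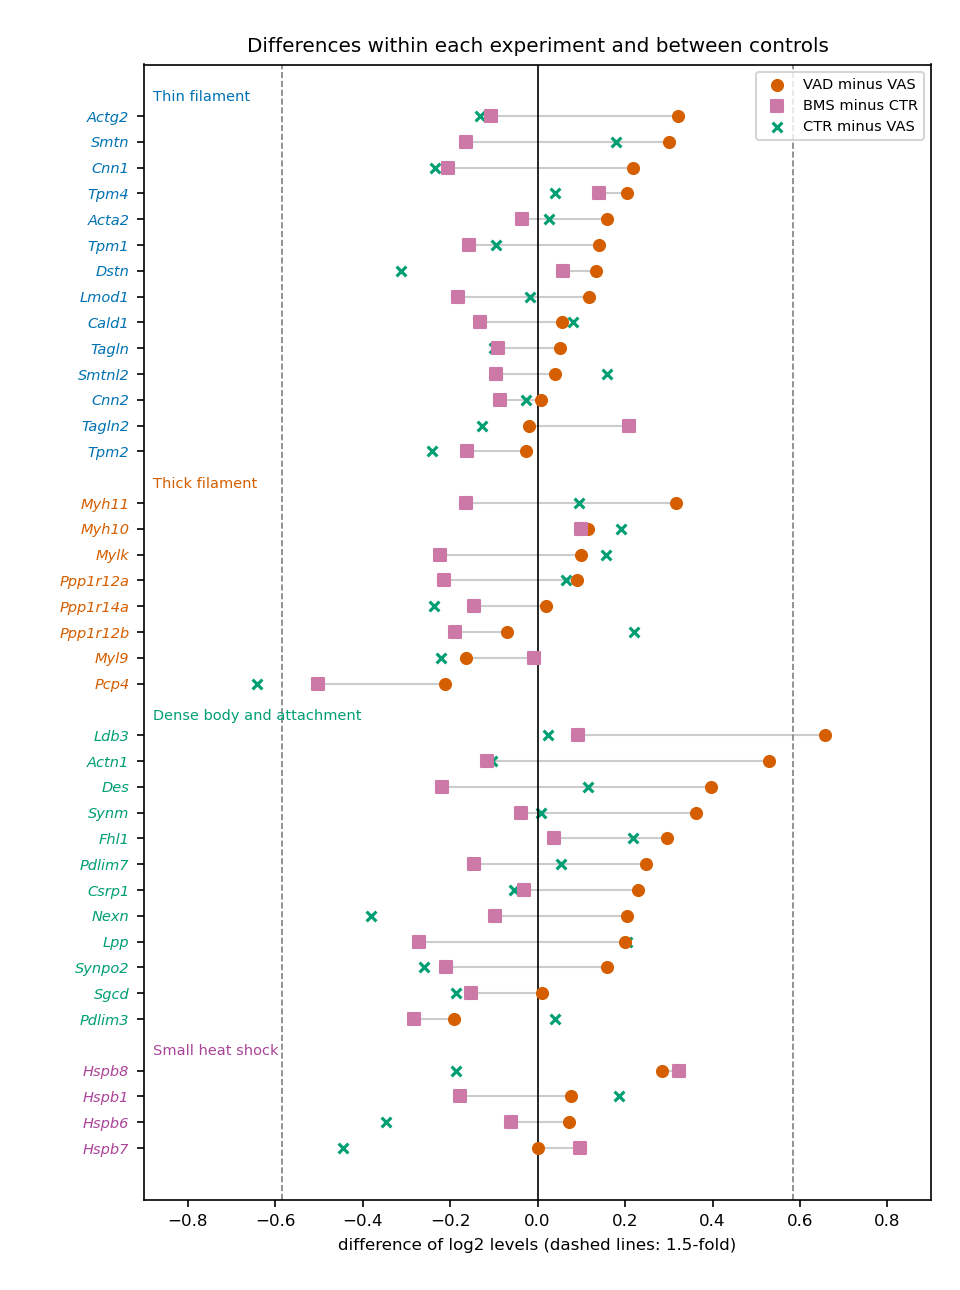
Difference of log2 levels for each of 38 members, by role and in order of VAD minus VAS (circles), with BMS minus CTR (squares) and CTR minus VAS (crosses); dashed lines mark 1.5-fold. Circles lie right of 0 for 31 genes and squares left of 0 for 30, Ldb3 is the circle past the line and Pcp4 the cross past it.

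The diet and antagonist comparisons share no array, so their members can be set side by side. In 25 of 38 members the difference was above 0 in VAD minus VAS and below 0 in BMS minus CTR (25.5% of all genes), and 1, Tagln2, had the reverse (25.5% of all genes). Above 0 in both were 6 members, Tpm4, Dstn, Myh10, Ldb3, Fhl1 and Hspb8 (25.9% of all genes). Below 0 in both were 5, Tpm2, Myl9, Ppp1r12b, Pcp4 and Pdlim3 (22.9% of all genes). VAD was the highest of the 4 arrays for 25 members (19.4% of all genes), and BMS the lowest for 26 (22.9% of all genes). Across the 38 members, the 2 sets of differences had a Pearson r of 0.27 and a Spearman rho of 0.13, against -0.07 and -0.04 across the 12395 genes. The members thus had opposite signs as a list, with little relation in size from gene to gene. Genes are not independent replicates and these coefficients carry no test.

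**Figure D4:**
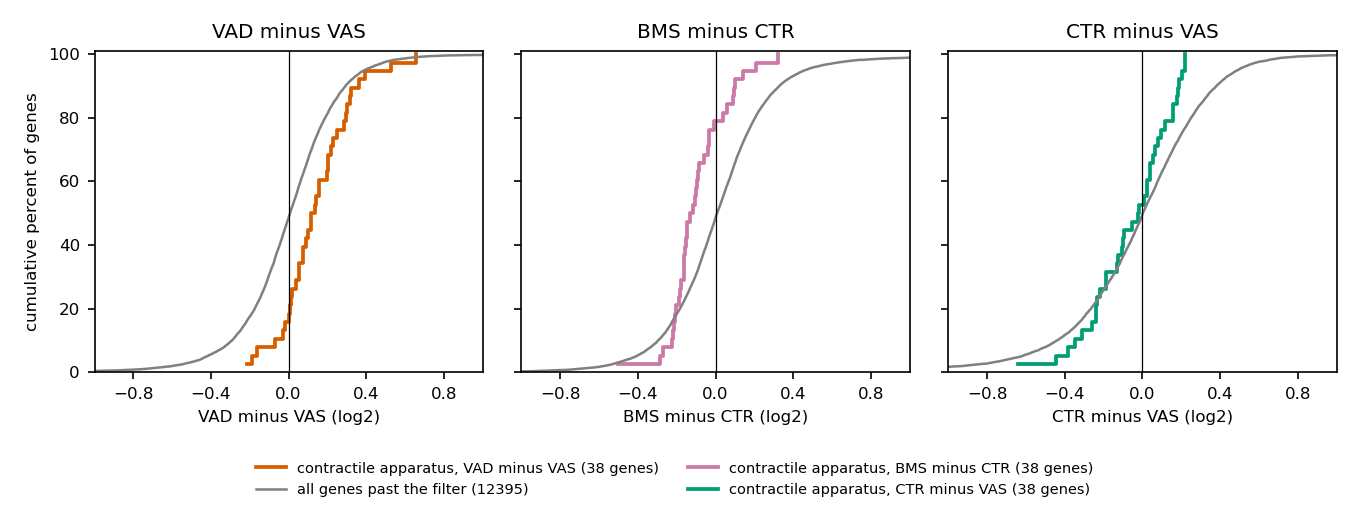
Cumulative percent of genes (vertical axis) against the difference of log2 levels (horizontal axis, shown from -1 to 1) for 38 contractile apparatus genes (coloured steps) and 12395 genes past the filter (grey), in VAD minus VAS, BMS minus CTR and CTR minus VAS. The coloured steps lie to the right of grey in the first panel over most of their course (medians 0.13 and 0.01), to the left in the second (-0.12 and 0.01), and cross the grey curve in the third (-0.02 and 0.00).

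The third comparison set the controls against each other. CTR and VAS mice were both vitamin A-sufficient but differed in experiment, form of diet, vehicle and pool, which cannot be told apart. The median CTR minus VAS difference of the members was -0.02, against 0.00 for all genes, and 18 of 38 were above 0 (50.4% of all genes). Pcp4 was the 1 member at least 1.5-fold lower in CTR (5.87% of all genes), and none was 1.5-fold higher (2.66%). At 0.32 log2 units, Pcp4, Nexn, Hspb6 and Hspb7 were lower (15.9% of all genes) and none higher (14.1%). Contractile genes thus had no common direction between the controls. Beside this, all 10 pericyte and vascular smooth muscle markers were above 0 (median 0.35, summed levels 12.94 in CTR and 12.40 in VAS). Above 0 were also 4 of 13 fibroblast markers (median -0.38, 14.40 in CTR and 14.61 in VAS). Of the cardiac markers 3 of 12 were (median -0.25, 12.48 in CTR and 12.94 in VAS). Leukocyte markers had 1 of 9 above 0 (median -0.42, 10.35 in CTR and 10.69 in VAS) and alveolar epithelial markers 1 of 10 (median -0.21, 9.60 in CTR and 11.45 in VAS). The alveolar marker Sftpc alone was at 7.32 in CTR and 10.86 in VAS. Endothelial markers had 2 of 10 above 0 (median -0.12, 10.56 in CTR and 10.73 in VAS) and airway epithelial markers 2 of 6 (median -0.19, 8.37 in CTR and 8.40 in VAS). Their part in the member differences was not tested.

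Over both controls and both treatments, 18 of 38 members stood lower on CTR and BMS than on VAD and VAS (21.8% of all genes). Smtnl2, Myh10 and Ppp1r12b, 3 members, stood higher (23.9%). These counts are not independent of the signs within each experiment, where 31 members were above 0 in VAD minus VAS and 30 below 0 in BMS minus CTR. Between the controls alone, 18 members were above 0 and 20 below. The 18 members lower on CTR and BMS than on VAD and VAS included Cnn1, Actg2, Dstn, Ppp1r14a, Pcp4, Nexn, Synpo2, Hspb6 and Hspb7. In a limma fit of the antagonist experiment against the diet experiment, with treatment as a block and Benjamini-Hochberg adjustment over 12395 genes, no member was called at an adjusted p under 0.05, as none of all genes was (0%). At an unadjusted p under 0.05 it had 7 of 38 members and 1351 of 12395 genes. The 7 were Pcp4, Nexn, Hspb6, Hspb7, Synpo2, Cnn1 and Dstn. Pcp4 had the largest coefficient, -0.79 ± 0.15 (SE, 2 arrays a side, limma adjusted p = 0.243), and Nexn the next, -0.53 ± 0.15 (limma adjusted p = 0.353). Adjusted p-values of the other members ran up to 0.995 in this fit.

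The joint limma fit set VAD and BMS against VAS and CTR with the experiment as a block, which asks for a difference that both treatments share. It called none of the 38 members and none of the 12395 genes at an adjusted p under 0.05 (0%), and at an unadjusted p under 0.05 it had 0 members and 476 genes. Member coefficients ran from -0.36 ± 0.15 for Pcp4 to 0.37 ± 0.18 for Ldb3 (SE, 2 arrays a side), each with a limma adjusted p of 1. Hspb8 was at 0.30 ± 0.13 and Pdlim3 at -0.24 ± 0.13. The fit has 1 residual degree of freedom per gene, and a difference of opposite sign in the 2 experiments is averaged away in it and counted as spread.

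Genes of the pathway outside the member list were counted from 2 further lists. Of 21 genes of myosin light chain phosphorylation, 18 had a value past the filter. In VAD minus VAS, 16 of the 18 were above 0 (51.4% of all genes), with a list median of 0.07. In BMS minus CTR, 6 were above 0 (51.4% of all genes, list median -0.11), and in CTR minus VAS 12 (50.4%, list median 0.12). None was 1.5-fold higher (1.45% of all genes) or lower (2.11%) in VAD than in VAS. In BMS, Dapk3, zipper-interacting kinase, which phosphorylates the phosphatase and the light chain, was the 1 gene at least 1.5-fold lower (1.89% of all genes). Dapk3 was at 6.41 in VAD, 6.27 in VAS, 5.86 in BMS and 6.57 in CTR. Ppp1r14b, a phosphatase inhibitor related to CPI-17, was the 1 gene 1.5-fold higher (3.11% of all genes). Ppp1r14b was at 6.27 in VAD, 6.20 in VAS, 6.44 in BMS and 5.84 in CTR. Both genes lay near the filter, in part below it.

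Of 45 further filament and attachment genes, 37 passed the filter. In VAD minus VAS, 25 of the 37 were above 0 (51.4% of all genes), with a list median of 0.13. In BMS minus CTR, 18 were above 0 (51.4% of all genes, list median -0.06), and in CTR minus VAS 20 (50.4%, list median 0.09). Flnc, the muscle filamin of Z-discs and attachment sites, was at 9.73 in VAD, 9.02 in VAS, 8.94 in BMS and 9.15 in CTR. Actn4, a non-muscle alpha-actinin, was at 10.57 in VAD, 9.88 in VAS, 10.23 in BMS and 10.12 in CTR. These were the 2 genes of the list 1.5-fold higher in VAD (1.45% of all genes), and none was 1.5-fold lower (2.11%). Pdlim5, a PDZ and LIM domain protein, was the 1 gene 1.5-fold lower in BMS (1.89% of all genes). Pdlim5 was at 9.47 in VAD, 9.14 in VAS, 8.95 in BMS and 9.55 in CTR. Between controls, Pdlim2 (-0.77), Fhl2 (-0.61) and Sgca, alpha-sarcoglycan (-0.61), were 1.5-fold lower in CTR than in VAS (5.87% of all genes). Utrn, utrophin (0.59), was 1.5-fold higher (2.66% of all genes). No gene of either list was called in the joint limma fit, which called none at all.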

How the data were processed

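RNA of sorted airway smooth muscle cells was hybridised to 1 expression array per group, 4 in all. The deposited values are log2 levels that the authors made with RMA (background correction, normalization between arrays, summary per probe set), for which the submitters' processing notes name affy 1.36.1 and R 2.15.1. The sources used here do not say which arrays were normalized together. No scanner signals were used, so detection above background cannot be judged, and precision is limited by having 4 arrays. Per the platform annotation, 23185 of 25206 probe sets have 1 gene symbol, none has several and 2021 are unnamed here. All named symbols matched RefSeq by Entrez number.

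Genes were kept where the highest of 4 values reached the median of named values. Differences are of 2 log2 values, with the members' counts at 1.5-fold set beside those of all genes. Members were named in full, and genes of other lists where past 1.5-fold. The members, roles and lists were chosen with earlier results of these data known. Limma 3.58.1 (lmFit, eBayes, Benjamini-Hochberg) in R 4.3.3 fitted both 2-against-2 contrasts. The joint fit alone was also run on simulated data. Their noise came from the variance that limma had estimated, and their shifts were upward and shared by VAD and BMS. The between-experiment fit and shifts of opposite sign were not simulated. Python 3.11.15, numpy 2.4.6, pandas 2.3.3 and matplotlib 3.10.9 did the rest. Summed levels are log2 of the sum of unlogged values, so the highest genes of a list weigh most. No same-numbered samples exist, since each group is 1 array. Alternatives were other filters, folds, normalizations and controls, leaving out each array, other limma settings and, chosen after seeing the data, leaving out Acta2.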

Additional observations from a re-analysis of the deposited data

Results flagged for a closer look

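The median difference of the 38 contractile apparatus genes was 0.13 in VAD minus VAS and -0.12 in BMS minus CTR on the log2 scale. It is given here because the diet and the antagonist, both meant to lower retinoic acid signalling, stood on opposite sides of 0 for the list, each on 1 array per group. The difference between the 2 experiments was not tested, since with 1 array per group no residual degree of freedom remains for it. No single member had opposite signs with both differences at 0.32 log2 units or more.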

How the results depend on the processing

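The VAD median stayed above 0 and the BMS median below 0 under every filter, normalization and control tried, and without Acta2. Against the other experiment's control, the VAD median was 0.20 and 3 members (Actn1, Ldb3 and Nexn) were 1.5-fold higher, as were 532 of 12395 genes (180 against VAS). Pcp4 was then the 1 member 1.5-fold lower in BMS (671 genes), and also against the mean of both controls (312 genes, and 234 against CTR). The CTR minus VAS median, near 0, changed sign to 0.0021 after quantile normalization again. At 2-fold, 0 members were higher in VAD and 0 lower in CTR than in VAS. At 0.32 log2 units, 4 were higher in VAD, 1 was higher and 1 lower in BMS, and 4 were lower in CTR. The joint and between-experiment limma fits called 0 members under each setting tried, including without each array in turn (0 to 0), where the block was dropped and a lone array is assumed to vary like the rest. With all 4 arrays, leaving out the block was run for the joint fit alone, and called 0. For all genes, the between-experiment fit called 0 as reported, but 10 under the 75th percentile filter, 15 after quantile normalization again, 41 without BMS and 53 without CTR. No paired analysis was possible because each group is 1 array. Signal over background is unknown, so it could not be checked which low values are measured.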
